A study of Mus musculus with 10 samples.

Results

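The Egr and Nr4a transcription factors and other early targets of the T cell receptor (TCR) were followed in thymic invariant natural killer T (iNKT) cells that lacked the E protein inhibitor Id3. Members were the genes Egr1, Egr2, Egr3, Nr4a1, Nr4a2, Nr4a3, Cd69, Fos, Junb and Nfatc1, taken with every probe set that the platform annotation gives to them. These 10 genes, of 18193 that the annotation names, were covered by 23 probe sets, of which 21 were bright enough to be tested. The cells came from thymi of 6-week-old C57BL/6 mice and were sorted by binding of a CD1d tetramer and by the absence of CD24 and NK1.1. The Id3KO stage 2 group (3 arrays) was sorted from Id3-deficient mice as CD44-positive cells, and the WT stage 2 group (3 arrays) as the same cells of wild-type mice. The Id3KO stage 1 group (2 arrays) and the WT stage 1 group (2 arrays) were the CD44-negative cells of the same genotypes. The Id3 allele, and whether animals were pooled for an array, are not given in the sources used here. Replicates are described as biological, and no treatment is named.

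An antigen receptor signal raises calcium and activates the kinase ERK within minutes. Calcium acts through calcineurin on NFAT proteins, ERK acts on serum response factor and its partners, and both lead to transcription of immediate early genes that need no new protein synthesis. The EGR zinc finger proteins and the NR4A orphan nuclear receptors are themselves among these genes. In the thymus, Egr2 is required for iNKT development, EGR proteins are activators of Id3, and Nr4a1 is widely used as a reporter of the strength of a TCR signal. Cd69 encodes a C-type lectin that appears on the surface soon after activation and holds cells in the tissue, Fos and Junb encode subunits of the AP-1 factor, and Nfatc1 encodes an NFAT protein that is itself induced by NFAT.

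The RefSeq promoter table (build GRCm38.p6) held windows for 6 of the 10 genes, namely Egr2, Nr4a1, Nr4a2, Nr4a3, Fos and Junb, and Egr1, Egr3, Cd69 and Nfatc1 were not matched. The 250 bases before the annotated start are shown for Egr2, Nr4a3, Nr4a1 and Fos, and letters further upstream were not searched. Averaged over the stages, Egr2 was called between the genotypes in both probe sets. Nr4a3 was called in its brightest probe set but not in its further tested one, and Nr4a1 and Fos did not pass the test. Capitals mark the CRE core TGACG on either strand, a part of the element bound by CREB and ATF factors, and the CArG box, which serum response factor binds.
Egr2, chr10:67537619-67537868, + strand: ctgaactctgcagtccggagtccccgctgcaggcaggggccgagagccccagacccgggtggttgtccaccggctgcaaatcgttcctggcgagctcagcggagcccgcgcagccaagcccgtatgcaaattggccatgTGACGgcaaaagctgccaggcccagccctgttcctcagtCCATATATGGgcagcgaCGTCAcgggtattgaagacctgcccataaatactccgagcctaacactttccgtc
Nr4a3, chr4:48045055-48045304, + strand: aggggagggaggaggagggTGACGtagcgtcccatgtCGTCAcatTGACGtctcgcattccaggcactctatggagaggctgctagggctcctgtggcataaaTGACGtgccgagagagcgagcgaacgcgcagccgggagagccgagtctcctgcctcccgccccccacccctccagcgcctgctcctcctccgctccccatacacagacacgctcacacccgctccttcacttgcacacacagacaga
Nr4a1, chr15:101266596-101266845, + strand: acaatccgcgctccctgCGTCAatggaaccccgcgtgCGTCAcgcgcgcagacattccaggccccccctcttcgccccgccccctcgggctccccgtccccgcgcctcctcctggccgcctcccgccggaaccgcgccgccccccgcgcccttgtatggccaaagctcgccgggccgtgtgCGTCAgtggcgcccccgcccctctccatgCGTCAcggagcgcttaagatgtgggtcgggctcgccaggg
Fos, chr12:85473640-85473889, + strand: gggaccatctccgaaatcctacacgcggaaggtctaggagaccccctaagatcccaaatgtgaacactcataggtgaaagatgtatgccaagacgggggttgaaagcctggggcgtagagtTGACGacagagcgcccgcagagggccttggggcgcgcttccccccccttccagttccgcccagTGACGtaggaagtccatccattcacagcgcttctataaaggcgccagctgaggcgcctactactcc

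Nr4a3 and Nr4a1 each held 4 copies of the CRE core in these 250 bases, as did the unprinted window of Nr4a2. The Egr2 window shown is the first of 3 that overlap among its 5 annotated starts, and it held 2 copies and 1 CArG box. Fos held 2 copies and Junb held 1. Of the 32851 windows in the table, 17.8% held the CRE core and 1.47% a CArG box. The full element TGACGTCA, present in 1.55% of all windows, was found in none of the members' windows. An EGR site (GCGNGGGCG on either strand, in 4.7% of all windows) was found once each in Nr4a1 and Nr4a2. Of the E boxes CAGCTG and CACCTG, letters that E proteins can bind and that 13.0% and 17.2% of windows hold, CAGCTG occurred once each in Fos and Junb. AAAGGTCA, the monomer site of NR4A receptors (1.34% of all windows), and the AP-1 site TGANTCA (6.75%) were in none of the members' windows. The NFAT core GGAAA (55.6%) was found in the window of Egr2 and in that of Nr4a2. A match is a description of these letters, and the data hold no measurement of binding.

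**Figure D1:**
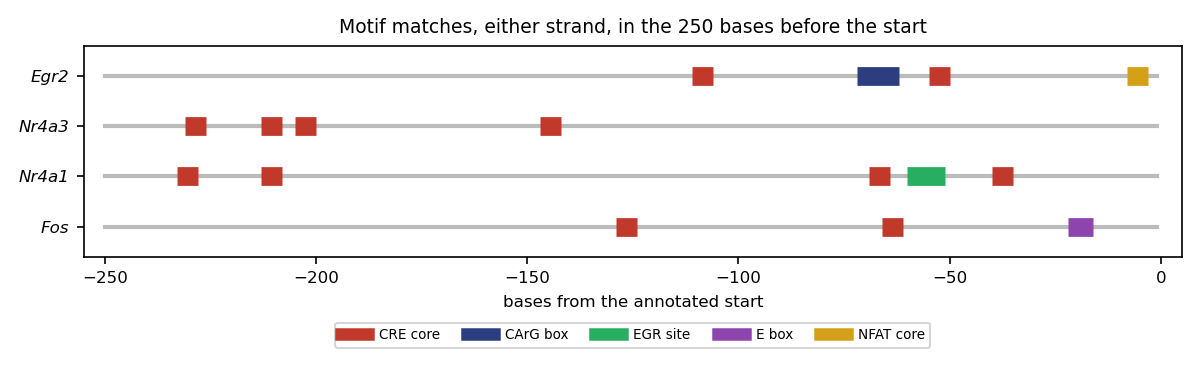
Motif matches on either strand in the 250 bases before the annotated start of Egr2, Nr4a3, Nr4a1 and Fos, with distance from the start on the horizontal axis. Red blocks are CRE cores (2, 4, 4 and 2 from top to bottom), the blue block is the CArG box of Egr2, green is an EGR site, violet an E box and yellow an NFAT core.

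The values are RMA intensities as log2, and a probe set was tested when 2 arrays or more exceeded 5.78, the table's median. Array medians ran from 54.8 to 55.5 in intensity, and replicates of a group correlated at 0.983 to 0.993. The number of arrays limits the precision of every value. Id3 itself averaged 5.99 in Id3KO stage 2 cells and 9.81 in WT stage 2 cells, and 6.01 in Id3KO stage 1 cells and 10.33 in WT stage 1 cells. The T cell and iNKT genes measured, among them Cd3e, Cd3g, Cd4, Cd44 and Zbtb16, were all bright enough to be tested in the sorted cells. Of 7 double-positive thymocyte markers, Rag1, Rag2, Dntt, Ptcra and Cd8b1 were below the level for testing, and Cd8a and Cd24a had tested probe sets, none called between the genotypes. Cd8a lay between 6.11 and 6.45 in its brighter probe set. Cd24a, the gene of the CD24 used in the sort, lay between 5.33 and 5.93 in its brighter probe set on 9 arrays and reached 6.69 on WT replicate 1 of stage 1. The WT arrays of stage 1 also lay apart from each other in Egr3, and the part of Cd24a there was not tested. Genotype moved with the markers of some iNKT subsets. The summed intensity of 4 NKT17 markers (Rora, Il17re, Ccr6 and Sdc1, of 6 listed) was 266 to 332 in Id3KO stage 2 cells and 1440 to 2220 in WT stage 2 cells. In stage 1 cells it was 301 to 322 in Id3KO cells and 448 to 643 in WT cells. For the 4 NKT1 markers (Tbx21, Il2rb, Cxcr3 and Ifng) the sums were 647 to 952 in Id3KO stage 2 cells, 2190 to 2580 in WT stage 2 cells, 656 to 875 in Id3KO stage 1 cells and 1270 to 1300 in WT stage 1 cells. For 3 of the 4 natural killer markers listed (Gzma, Klra8 and Ncr1, the last below the level for testing) they were 2160 to 3480 in Id3KO stage 2 cells, 210 to 284 in WT stage 2 cells, 2090 to 4070 in Id3KO stage 1 cells and 174 to 220 in WT stage 1 cells. The 4 NKT2 markers (Il4, Gata3, Il17rb and Zbtb16) summed to 3500 to 3890 in Id3KO and 3890 to 3980 in WT stage 2 cells. At stage 1 the sums were 3520 to 3670 in Id3KO cells and 3760 to 4230 in WT cells. Of their 6 tested probe sets, 0 were called between the genotypes. In bulk samples a change in the share of a subset and a change in RNA per cell cannot be told apart, and the part of these subsets in the results below was not tested.

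Across both stages, 3 of the 10 genes rose in Id3KO cells by limma's test, namely Egr2, Cd69 and Nr4a3, and 0 fell. The difference averaged over the stages, with both stages weighted equally, was called for 4 of the 21 tested probe sets, all higher, against 2.18% of all 25061 tested probe sets called higher and 4.97% called in either direction. The count was 0 without WT replicate 2 of stage 1 and 1 without Id3KO replicate 2 of stage 1. At an unadjusted p under 0.05, 6 of the 21 were higher and 1 lower, against 7.55% and 9.23% of all tested probe sets. The median log2 fold change of the 21 was 0.02, and that of all tested probe sets was 0.002. At stage 2 alone, Cd69 was the 1 probe set called higher and 0 were called lower, where 1.82% of all tested probe sets were higher and 2.39% lower (4.21% in all). With an unadjusted p under 0.05, 4 of the 21 were higher and 2 lower at stage 2, against 7.95% and 8.95% of all tested probe sets. At stage 1 alone, 0 of the 21 were called in either direction (0.459% higher and 0.343% lower among all tested probe sets, 0.802% together). There 6 were higher and 0 lower at an unadjusted p under 0.05, against 5.08% and 5.41% of all tested probe sets. Id3KO and WT arrays stood fully apart for 5 probe sets above WT and 3 below it at stage 2 (10.9% and 10.5% of all tested), for 10 above and 1 below at stage 1 (18.7% and 22.8%), and for 3 above and 0 below over all 10 arrays (3.1% and 3.75%). The 10 above at stage 1 include dim Nr4a2 probe sets that were tested only because of their Id3KO values. The Nr4a2 probe set with the largest difference is also among the 6 higher at an unadjusted p under 0.05, at stage 1 and in the average.

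**Figure D2:**
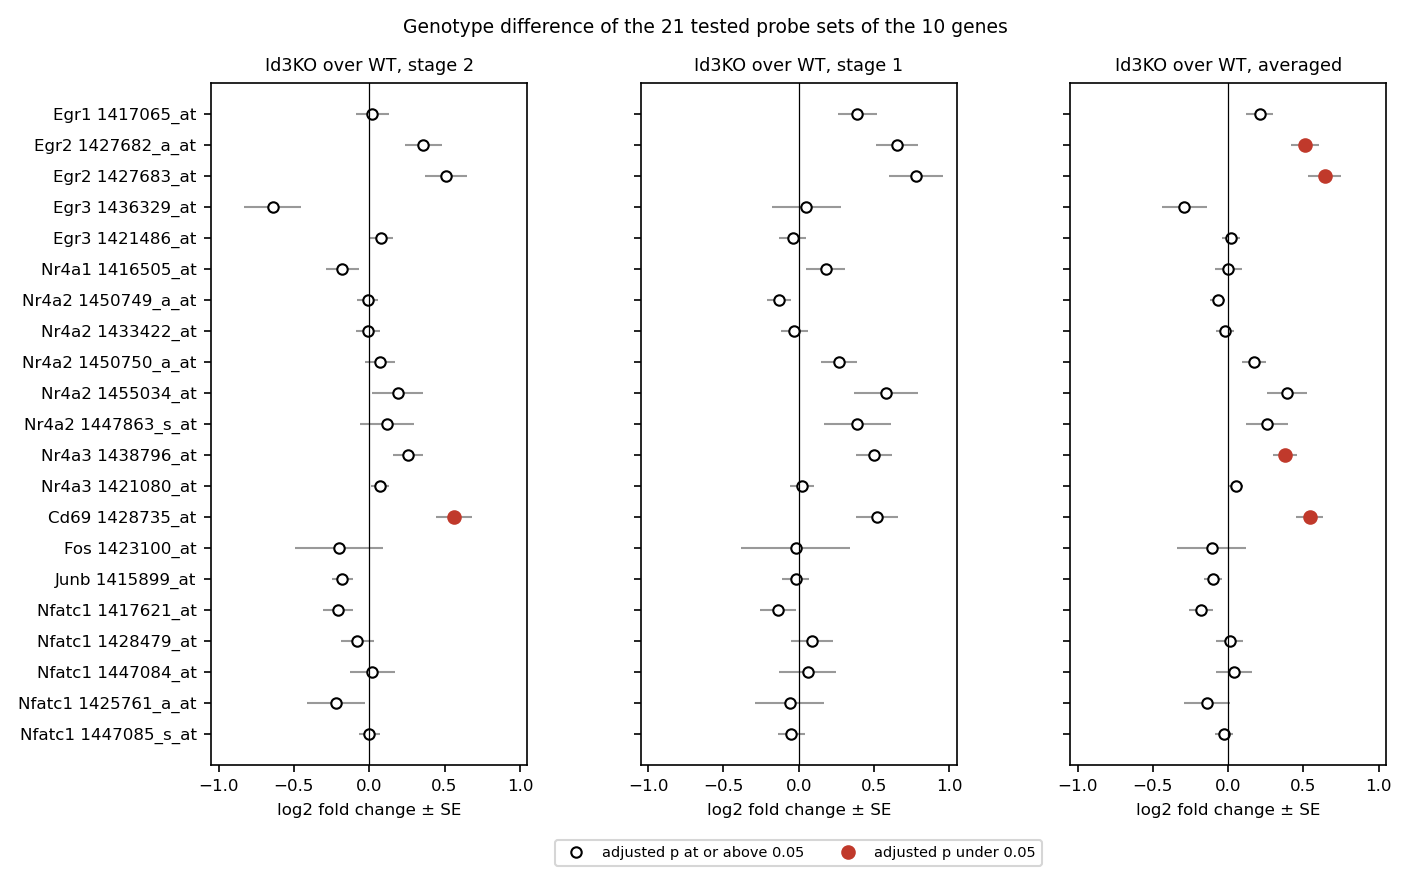
Log2 fold change of Id3KO over WT cells with its standard error for the 21 tested probe sets, at stage 2 (3 arrays against 3), at stage 1 (2 against 2) and averaged over the stages. Filled points passed limma's test over all tested probe sets: Cd69 at stage 2, and both Egr2 probe sets, one of Nr4a3 and Cd69 in the average.

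Egr2, the EGR family member required for iNKT development, was higher in Id3KO cells in both of its probe sets, which correlated at 0.98 over the 10 arrays. The first had log2 intensities of 9.21, 9.26 and 9.17 in Id3KO stage 2 cells and 9.04, 8.87 and 8.65 in WT stage 2 cells. The stage 1 values were 9.29 and 9.50 in Id3KO cells and 8.87 and 8.63 in WT cells. Every Id3KO array thus lay above every WT array, at each stage and over both, which held for 3.1% of all tested probe sets. Averaged over the stages it rose by 0.51 ± 0.09 (log2, SE, 5 arrays against 5), or 1.42-fold (limma adjusted p = 0.0153). The second probe set stood at 8.92, 8.91 and 8.69 in Id3KO stage 2 cells and at 8.51, 8.33 and 8.15 in WT stage 2 cells. Stage 1 values were 8.88 and 9.20 in Id3KO cells and 8.46 and 8.07 in WT cells. The genotypes again did not overlap, and the averaged increase was 0.64 ± 0.11 (log2, SE), or 1.56-fold (limma adjusted p = 0.0133).

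Taken by stage, neither Egr2 probe set passed. The differences were 0.36 ± 0.12 and 0.51 ± 0.14 at stage 2 (log2, SE, limma adjusted p = 0.142 and 0.0954) and 0.65 ± 0.14 and 0.78 ± 0.18 at stage 1 (limma adjusted p = 0.0950 and 0.106). The interaction of genotype and stage, which tests whether the differences of the stages differ, was -0.29 ± 0.18 and -0.27 ± 0.23 (log2, SE, limma adjusted p = 0.786 and 0.850). The averaged call was lost in both probe sets without WT replicate 2 of stage 1 (limma adjusted p = 0.0716 and 0.0561) and without Id3KO replicate 2 of stage 1 (0.062 and 0.0541).

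Egr3, which overlaps with Egr2 in restraining activated T cells, did not follow it. Its brighter probe set stood at 8.93, 8.63 and 8.84 in Id3KO stage 2 cells and at 9.44, 9.43 and 9.43 in WT stage 2 cells, where the Id3KO arrays all lay below the WT arrays (10.5% of all tested probe sets did). At stage 1 it was at 9.02 and 9.11 in Id3KO cells and at 8.59 and 9.45 in WT cells. The WT replicates of stage 1 lay further apart than those of any other group, with the Id3KO arrays between them. The stage 2 difference of -0.64 ± 0.19 (log2, SE) did not pass in the fit over all 10 arrays (limma adjusted p = 0.111). It passed when the 6 stage 2 arrays alone were fitted (-0.64, adjusted p = 0.0245) and without either WT array of stage 1 (adjusted p = 0.0115 for each). The averaged difference of -0.29 ± 0.15 (limma adjusted p = 0.377) was -0.51 without WT replicate 1 of stage 1 (adjusted p = 0.0190), and without WT replicate 2 it was -0.08. The dimmer probe set of Egr3 lay between 6.12 and 6.37 on all arrays and differed by 0.02 ± 0.06 on average (limma adjusted p = 0.920).

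Egr1, the family member that responds most broadly to growth signals, had a single probe set that was bright on every array. It stood at 10.36, 9.98 and 10.31 in Id3KO stage 2 cells and at 10.23, 10.21 and 10.13 in WT stage 2 cells, so the genotypes overlapped. At stage 1 it stood at 10.20 and 10.35 in Id3KO cells and at 9.80 and 9.95 in WT cells, where they did not, as in 18.7% of all tested probe sets. The differences were 0.02 ± 0.11 at stage 2 (log2, SE, limma adjusted p = 0.954) and 0.39 ± 0.13 at stage 1 (adjusted p = 0.328). Its interaction was -0.37 ± 0.17 (limma adjusted p = 0.727).

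**Figure D3:**
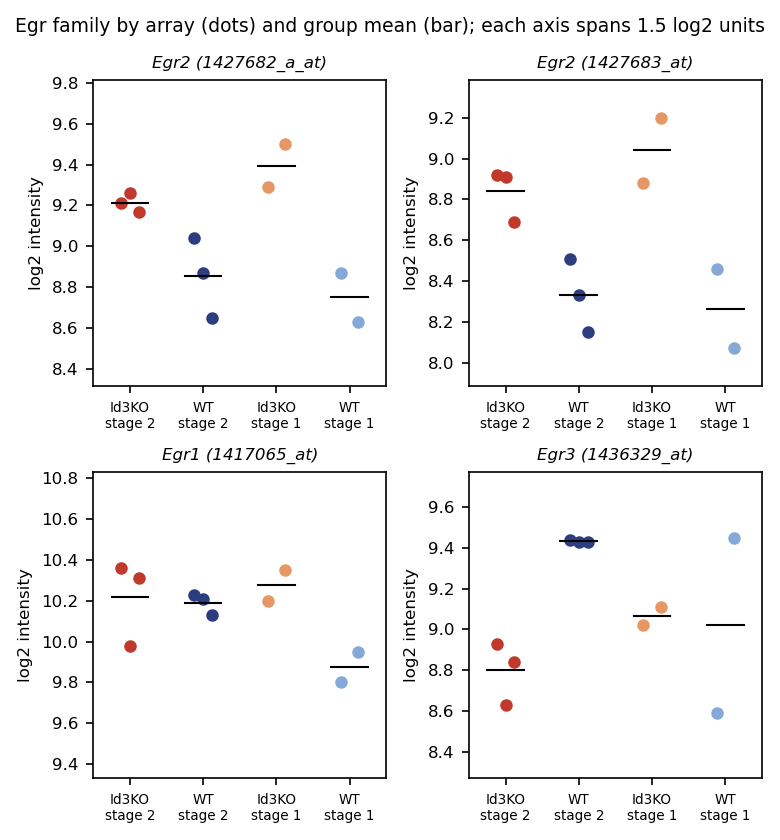
Log2 intensity of the Egr2 probe sets, of Egr1 and of the brighter Egr3 probe set on each array (dots) with the group mean (bar). Id3KO arrays lie above WT arrays at both stages for Egr2, and below them at stage 2 for Egr3, where WT arrays stand at 9.43 to 9.44.

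The NR4A receptors bind DNA without a known natural ligand, and the arrays measure their RNA and not their activity. Nr4a3 (NOR1) was read by 3 probe sets. The brightest had log2 intensities of 6.60, 6.33 and 6.38 in Id3KO stage 2 cells and 6.24, 6.15 and 6.16 in WT stage 2 cells. At stage 1 they were 6.88 and 7.01 in Id3KO cells and 6.57 and 6.31 in WT cells. Id3KO arrays lay above WT arrays within each stage (18.7% of all tested probe sets did at stage 1 and 10.9% at stage 2). Stage 1 arrays lay above stage 2 arrays within each genotype (14.4% of all tested probe sets did in WT cells and 8.91% in Id3KO cells). Averaged over the stages, this probe set rose by 0.38 ± 0.08 (log2, SE), or 1.30-fold (limma adjusted p = 0.0287). The call was lost without WT replicate 2 of stage 1 (limma adjusted p = 0.112), WT replicate 2 (0.0721) or 3 (0.072) of stage 2, or Id3KO replicate 1 (0.0661) or 2 (0.1) of stage 1. A further probe set of Nr4a3 stood between 6.36 and 6.55 and differed by 0.05 ± 0.05 (limma adjusted p = 0.760). In Id3KO cells its stage 2 arrays lay above its stage 1 arrays (9.45% of all tested probe sets did). The third probe set was below the level for testing, at 5.25 to 5.38.

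Nr4a1 (NUR77), whose transcription tracks TCR signals, had log2 intensities of 7.34, 7.40 and 7.68 in Id3KO stage 2 cells and 7.81, 7.56 and 7.59 in WT stage 2 cells. At stage 1 they were 7.80 and 7.67 in Id3KO cells and 7.51 and 7.60 in WT cells. The genotypes overlapped at stage 2, and Id3KO arrays lay above WT arrays at stage 1 (18.7% of all tested probe sets did). The differences were -0.18 ± 0.11 at stage 2 and 0.18 ± 0.13 at stage 1 (log2, SE, limma adjusted p = 0.480 and 0.734), which leaves an average of 0.00 ± 0.09 (adjusted p = 0.998).

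Nr4a2 (NURR1) had 6 probe sets, all of which stood near the level for testing, from 5.09 to 6.15 over all arrays, and 1 of them was below it. Of the 5 tested, 0 passed in any comparison. The largest difference among these was 0.58 ± 0.21 at stage 1 and 0.19 ± 0.17 at stage 2 (log2, SE, limma adjusted p = 0.356 and 0.669). It stood at 6.03 and 5.46 in Id3KO stage 1 cells and at 5.09 and 5.24 in WT stage 1 cells. It exceeded the level for testing on 2 arrays only, both of Id3KO cells (6.03 at stage 1 and 5.89 at stage 2). This probe set was thus tested only because of its Id3KO values, and the size of its rise is not measured. The same holds for the Nr4a2 probe sets with stage 1 differences of 0.39 and 0.27. Levels this close to the median of the table limit what these probe sets can show.

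Cd69, the early activation lectin that retains cells in the thymus, was the member called at stage 2. Its probe set stood at 7.05, 7.10 and 6.83 in Id3KO stage 2 cells and at 6.59, 6.39 and 6.32 in WT stage 2 cells. At stage 1 it stood at 7.05 and 6.73 in Id3KO cells and at 6.41 and 6.33 in WT cells. Every Id3KO array lay above every WT array, which held for 3.1% of all tested probe sets. The increase was 0.56 ± 0.12 at stage 2 (log2, SE, 3 arrays against 3), or 1.47-fold (limma adjusted p = 0.0336), and the stage 1 difference of 0.52 ± 0.14 did not pass (adjusted p = 0.199). Averaged over the stages Cd69 rose by 0.54 ± 0.09, or 1.45-fold (limma adjusted p = 0.0118), and the interaction was 0.04 ± 0.18 (adjusted p = 0.981). The stage 2 call was lost when the 6 stage 2 arrays alone were fitted (limma adjusted p = 0.0609), without either WT array of stage 1 (0.0577 for each), and when any of 4 stage 2 arrays was left out, namely Id3KO replicates 1 (0.0922) and 2 (0.103) and WT replicates 2 (0.107) and 3 (0.123). The averaged call was lost without WT replicate 2 of stage 1 (0.0561).

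**Figure D4:**
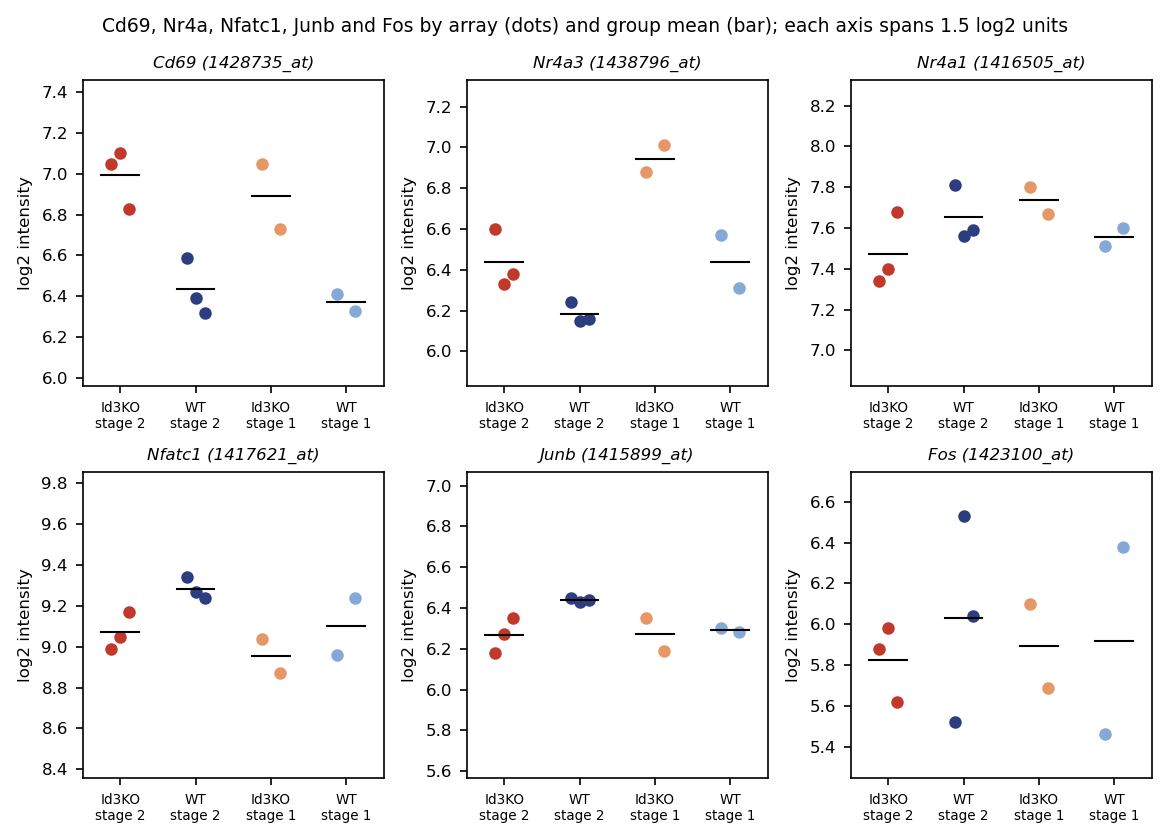
Log2 intensity of Cd69, the brightest Nr4a3 probe set, Nr4a1, the brightest Nfatc1 probe set, Junb and Fos on each array (dots) with the group mean (bar). Cd69 is higher on all 5 Id3KO arrays, Nr4a3 is higher in Id3KO cells within each stage, and Fos spreads widely within the WT groups.

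Fos, the partner of JUN proteins in AP-1, was dim and variable. It stood at 5.88, 5.98 and 5.62 in Id3KO stage 2 cells and at 5.52, 6.53 and 6.04 in WT stage 2 cells. Stage 1 arrays read 6.10 and 5.69 in Id3KO cells and 5.46 and 6.38 in WT cells. The genotypes overlapped at both stages, and the averaged difference of -0.11 ± 0.23 (log2, SE, limma adjusted p = 0.889) had the largest error of the tested members. Without 1 array at a time it ranged from -0.34 to 0.12. Junb, an AP-1 subunit, lay between 6.18 and 6.35 in Id3KO stage 2 cells and between 6.43 and 6.45 in WT stage 2 cells. Its Id3KO arrays thus lay below its WT arrays there, as in 10.5% of all tested probe sets. Its stage 2 difference of -0.18 ± 0.07 did not pass (log2, SE, limma adjusted p = 0.263), and at stage 1 it was -0.02 ± 0.09 (adjusted p = 0.976).

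Nfatc1 had 5 probe sets, all tested and none called in any comparison. The brightest stood at 8.99, 9.05 and 9.17 in Id3KO stage 2 cells and at 9.34, 9.27 and 9.24 in WT stage 2 cells. At stage 1 it stood at 9.04 and 8.87 in Id3KO cells and at 8.96 and 9.24 in WT cells. Id3KO arrays were the lower ones at stage 2, as in 10.5% of all tested probe sets, and overlapped with WT arrays at stage 1. The averaged difference was -0.18 ± 0.08 (log2, SE, limma adjusted p = 0.271). The averaged differences of the other 4 ran from -0.14 to 0.04.

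Between the stages, 0 of the 21 tested probe sets were called by limma in WT cells, in Id3KO cells or in the average over the genotypes. Across all tested probe sets 0.012% were higher and 0.00399% lower at stage 2 in WT cells (0.016% together), 0% changed in either direction in Id3KO cells, and 0.00399% were higher and 0% lower in the average. At an unadjusted p under 0.05, 1 was higher and 1 lower in WT cells, and 0 were higher and 1 lower in Id3KO cells and in the average. Among all tested probe sets the shares were 3.59% higher and 4.47% lower in WT cells, 1.86% and 2.65% in Id3KO cells, and 2.04% and 3.42% in the average. Counts this near those shares are no result about the members. At that unadjusted level the lower probe set was the brightest of Nr4a3 in each case, at -0.26 ± 0.11 in WT cells and -0.50 ± 0.11 in Id3KO cells (log2, SE, limma adjusted p = 0.616 and 1). The higher one, in WT cells, was Egr1, at 0.31 ± 0.12 (limma adjusted p = 0.567), with stage 2 arrays at 10.23, 10.21 and 10.13 and stage 1 arrays at 9.80 and 9.95. Stage 2 arrays did not overlap with stage 1 arrays for 6 probe sets above and 1 below in WT cells (11.8% and 14.4% of all tested), and for 2 above and 3 below in Id3KO cells (9.45% and 8.91%). The 6 above in WT cells include dim Nr4a2 probe sets that were below the level for testing on every WT array. They were tested only because of their Id3KO values. For the interaction 0 probe sets of the members or of the whole table passed. With an unadjusted p under 0.05, 0 members were higher and 1 lower there, against 3.45% and 3.62% of all tested probe sets. The lower one was Egr3 (-0.68 ± 0.30, log2, SE, limma adjusted p = 0.706), and this count too is no result about the members.

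Among 25 other immediate early and AP-1 genes, 20 had a tested probe set, 0 rose and 3 fell in the average over the stages. Of their 36 probe sets 0 were called higher and 3 lower, where 2.18% and 2.79% of all tested probe sets were, and the median was -0.05. At an unadjusted p under 0.05, 2 of the 36 were higher and 10 lower, against 7.55% and 9.23% of all tested probe sets. Fosl2, an AP-1 subunit related to Fos, stood at 5.73, 5.67 and 5.52 in Id3KO stage 2 cells and at 6.52, 6.64 and 6.87 in WT stage 2 cells, and at 5.59 and 5.75 in Id3KO stage 1 cells and 6.24 and 6.13 in WT stage 1 cells. All 5 Id3KO arrays were below the level for testing, so this probe set was tested only because of its WT values, and the size of its fall is not measured (limma adjusted p = 0.0013). Its dimmer probe set differed by -0.04 on average (adjusted p = 0.872). Ier5, an immediate early gene, fell in 1 of 3 probe sets by 0.54 ± 0.09 (log2, SE, adjusted p = 0.0125), and Klf10, a zinc finger gene induced by TGF-beta, fell by 0.87 ± 0.19 (adjusted p = 0.0351). Ier5 was lost without WT replicate 1 or Id3KO replicate 2 of stage 1 (up to 0.0613). Klf10 was lost without any of the WT arrays, either Id3KO array of stage 1 or Id3KO replicate 3 of stage 2, without the filter and with the replicate block (up to 0.125). Jun, Fosb, Fosl1, Atf3 and Klf4 were below the level for testing.

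Of 13 partners and targets of EGR proteins, all tested, 1 rose and 2 fell in the average (1 probe set higher and 4 lower of 26, median 0.01, against 2.18% and 2.79% of all tested probe sets). At an unadjusted p under 0.05, 4 of the 26 were higher and 7 lower, against 7.55% and 9.23%. Dgka, a diacylglycerol kinase that EGR proteins induce and that dampens TCR signals, rose by 0.47 ± 0.08 (log2, SE, limma adjusted p = 0.00925). Id2, the E protein inhibitor related to Id3, fell in each of its 3 probe sets (-0.74, -0.74 and -0.52, adjusted p = 0.0154, 0.0126 and 0.0173), and Tbx21, the factor T-bet, fell by 1.29 ± 0.15 (adjusted p = 0.0019). At stage 2 Nab1, a corepressor that binds EGR proteins, fell in 1 of 3 probe sets (-0.49 ± 0.08, adjusted p = 0.00908). Its brightest probe set stood at 0.01 (adjusted p = 0.989), and Nab2, the other corepressor, at 0.23 (adjusted p = 0.540). At stage 2 Il2rb, the interleukin 2 receptor beta chain, fell in 1 of 2 probe sets by 0.95 (adjusted p = 0.0326) and Cdkn1a, the cell cycle inhibitor p21, rose in 1 of 2 by 0.33 (adjusted p = 0.0427). Dgka and Tbx21 were called in the average, and Nab1 at stage 2, under each of 18 alternatives (limma adjusted p up to 0.0441, 0.0129 and 0.0404). The averaged calls of Id2 were lost without some stage 1 arrays, in each probe set without either WT array (up to 0.0739). The stage 2 calls of Il2rb and Cdkn1a were lost under 9 of 19 and 12 of 18 alternatives, among them leaving out any WT array (up to 0.117 and 0.142). Zbtb16, the iNKT factor PLZF and an EGR2 target, had averages of -0.06, -0.08 and 0.21 in its 3 probe sets (adjusted p = 0.801, 0.535 and 0.499).

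**Figure D5:**
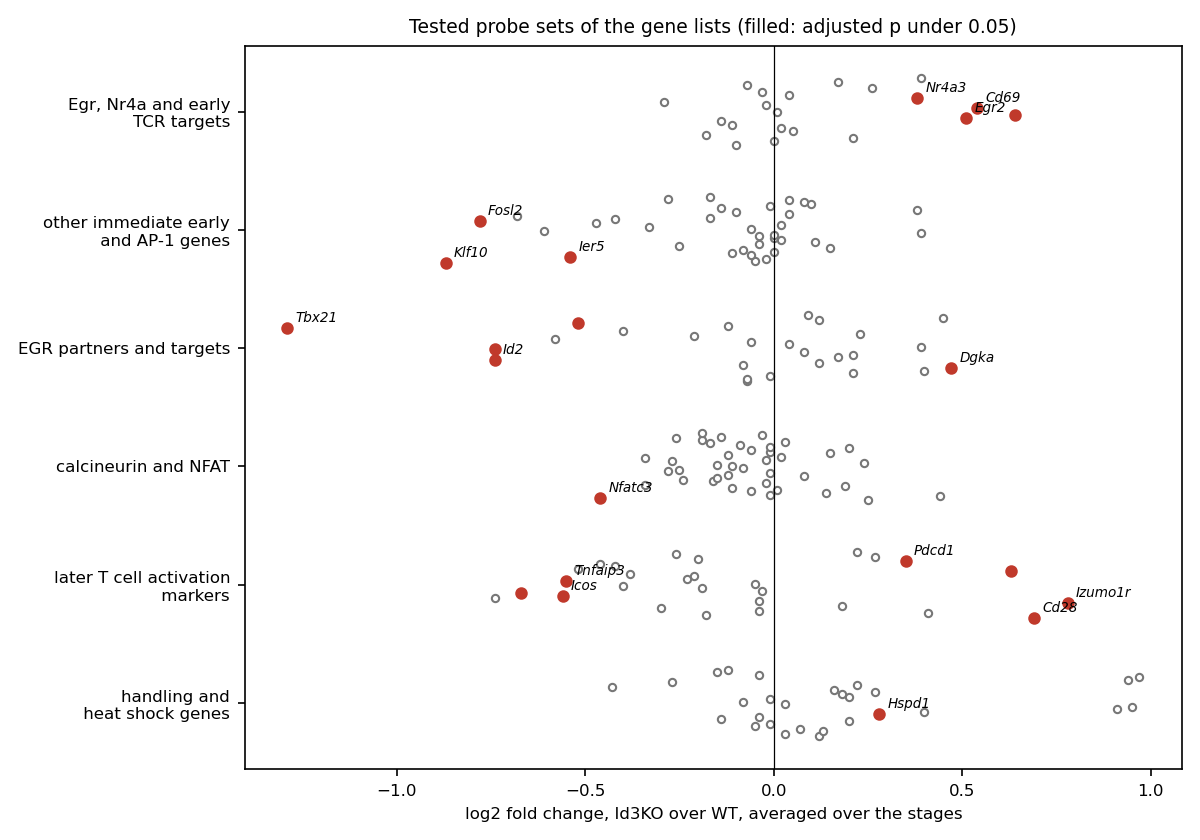
Log2 fold change of Id3KO over WT cells, averaged over the stages, for each tested probe set of the members and of 5 further lists. Filled points passed limma's test and carry the gene symbol once per gene. In the top row the called points are all at positive values, and Fosl2, Klf10 and Ier5 in the next row are all at negative values. Fosl2 was tested only because of its WT values, and the Klf10 call was lost under 10 of 18 alternatives.

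The calcineurin and NFAT list had 15 genes, all tested, with 0 of 41 probe sets higher and 1 lower in the average and a median of -0.08, where 2.18% and 2.79% of all tested probe sets were called, so the count is no result about the list. The gene that fell was Nfatc3 (-0.46 ± 0.08, log2, SE, limma adjusted p = 0.0140), in 1 of its 2 tested probe sets, and the call was lost without WT replicate 2 or Id3KO replicate 2 of stage 1 (adjusted p up to 0.067). At stage 2 the same probe set fell by 0.61 ± 0.10 (adjusted p = 0.0142) and was called under each of 19 alternatives (up to 0.0443). At an unadjusted p under 0.05, 1 of the 41 was higher and 4 lower in the average, against 7.55% and 9.23% of all tested probe sets. Of 21 later activation markers, 18 had a tested probe set, and 3 rose and 2 fell in the average (4 probe sets higher and 3 lower of 28, median -0.19, against 2.18% and 2.79% of all tested probe sets). With an unadjusted p under 0.05, 7 of the 28 were higher and 11 lower, against the same 7.55% and 9.23%. The costimulatory receptor Cd28 rose in both probe sets (0.69 and 0.63, adjusted p = 0.00512 and 0.00739), as did Izumo1r, the folate receptor 4 (0.78, adjusted p = 0.00194), and Pdcd1, the inhibitory receptor PD-1 (0.35, adjusted p = 0.0241). Icos, another costimulatory receptor, fell in 2 of 3 probe sets (-0.67 and -0.56, adjusted p = 0.0289 and 0.0366), and Tnfaip3, which encodes the NF-kappaB inhibitor A20, fell by 0.55 (adjusted p = 0.00266). Cd5, which follows the strength of TCR signals in the thymus, differed by 0.41 ± 0.13 without passing (adjusted p = 0.132). At stage 2 alone 1 of 5 probe sets of Nfkbia (-0.78, adjusted p = 0.0462) and Bhlhe40 (-0.38, adjusted p = 0.0356) also fell. Cd28, Izumo1r and Tnfaip3 were called in the average under every alternative run (limma adjusted p up to 0.0416, 0.0125 and 0.018). Pdcd1 was lost with the replicate block, without WT replicate 2 of either stage and without either Id3KO array of stage 1 (up to 0.0989). Both Icos calls were lost without any one of 4 WT arrays (replicates 1 and 2 of stage 1, 2 and 3 of stage 2) or either Id3KO array of stage 1 and without the filter (adjusted p up to 0.116 and 0.123), and the smaller one also without WT replicate 1 of stage 2 and with the block. The stage 2 calls of Nfkbia and Bhlhe40 were lost under 12 and 9 of 18 alternatives (up to 0.136 and 0.131).

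Genes that respond to handling and heat were also read, since immediate early genes can respond to cell isolation. Of 13 genes, all tested, 1 rose and 0 fell in the average (1 of 28 probe sets higher, median 0.09, against 2.18% of all tested probe sets), the riser being the chaperonin Hspd1 (0.28 ± 0.06, log2, SE, limma adjusted p = 0.0263). At an unadjusted p under 0.05, 11 of the 28 were higher and 2 lower in the average, against 7.55% and 9.23% of all tested probe sets. The same counts, 11 higher and 2 lower, held at stage 2, against 7.95% and 8.95%, with a median of 0.15. The part of the handling genes in the members' results was not tested. Hspd1 was lost under 8 of 18 alternatives, among them the block and leaving out either array of either stage 1 group (adjusted p up to 0.113). At stage 2 Gadd45b fell in 1 of 2 probe sets (-0.78, adjusted p = 0.0171), a call lost without Id3KO replicate 1 or 2 of stage 2 and with only the stage 2 arrays (up to 0.0615). The inducible heat shock gene Hspa1a stood at 8.72, 8.94 and 8.48 in Id3KO stage 2 cells and at 7.31, 7.70 and 6.52 in WT stage 2 cells (1.54, adjusted p = 0.0505), and at 8.24 and 7.41 in Id3KO stage 1 cells and at 6.93 and 7.91 in WT stage 1 cells. It did not pass.

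Over the 10 arrays, the brightest Egr2 probe set correlated with Cd69 at 0.82, with the brightest Nr4a3 probe set at 0.72, with Egr1 at 0.54, with Nr4a1 at 0.08 and with the brighter Egr3 probe set at -0.47. These are descriptions over arrays that share the group differences, as are the likeness values that follow. The genes outside the list with the profiles most like Egr2 were the adenylyl cyclase Adcy9 (Pearson correlation 0.973), Il6st, the signalling chain gp130 (0.961), and Rasgef1a (0.948). For Cd69 they were Fbn2 (0.965), Ralyl (0.956) and Shmt1 (0.954). For Egr1 they were Zfp64 (0.913), Ankrd39 (0.901) and Tent5c (0.891), and for Nr4a1 Ubac2 (0.883), Akap11 (0.878) and Gpcpd1 (0.876).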

How the data were processed

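RNA of sorted thymic iNKT cells was amplified in 2 cycles and measured on 10 Affymetrix arrays. Per the submitters' processing notes the authors normalized the arrays with RMA (version not given in the sources used here), and the deposited values are intensities on a linear scale, from 29 to 15399, with replicates kept apart. Log2 was taken here. Groups and replicate numbers came from the labels. Probe sets above the table median (5.78) on at least 2 arrays were kept, 25061 of 45037. The platform annotation gives 1 gene for 20942 of these, several for 593 and no gene for 3526, and symbols were updated through gene IDs.

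A linear model with 1 mean for each group was fitted to the 10 arrays in limma 3.58.1 (R 4.3.3), which gave 6 residual and 2.8 prior degrees of freedom, and 7 contrasts were tested two-sided. The Benjamini-Hochberg adjustment ran over all kept probe sets, and calls are those under 0.05. P-values set a difference of group means against the spread between these arrays within groups. Errors are moderated standard errors. Alternatives were no filter or a stricter one (6.5), quantile normalization or median centring added, a robust prior with an intensity trend, weighted arrays, a fit of the compared arrays alone, a block for the replicate number, the brightest probe set of each gene, and leaving out each array. The members and lists were chosen with earlier results of these data known. Named genes are all members, called list genes and list extremes, and the 3 genes with the highest correlation to Egr1, Egr2, Nr4a1 and Cd69; genes named at other values were chosen after those were seen. The pipeline was tested on simulated data. The 13 pairs of same-numbered arrays of different groups had correlations of their deviations from -0.311 to 0.133. In a group of 2 arrays the deviations mirror each other, so same-numbered and crossed pairs with stage 1 arrays differ only in sign. The pairs with stage 1 arrays therefore cannot decide whether the numbers pair the arrays. Between the stage 2 groups, same-numbered arrays correlated at -0.025, -0.022 and 0.133, and crossed arrays at -0.1 to 0.094. Values this small and mixed in sign do not decide it either. The main fit held no block, and the block was run as an alternative.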

Additional observations from a re-analysis of the deposited data

How the results depend on the processing

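Without any filter, with the stricter one, with quantile normalization, median centring, an intensity trend or 1 probe set per gene, the counts of member probe sets called higher (4 in the average, 1 at stage 2, 0 at stage 1) and lower (0 in each) stayed within 1.5 times. At stage 2 the count of higher probe sets was 2 with array weights, which added the second Egr2 probe set (adjusted p = 0.0493), and 0 with only the stage 2 arrays, where 1 (Egr3) was lower. Without 1 array at a time the stage 2 counts ranged from 0 to 1 higher and from 0 to 1 lower. The averaged counts ranged from 0 to 4 higher and from 0 to 1 lower. The cause was not tested. With the replicate number as a block the members' counts were 4 higher in the average, 1 at stage 2 and 0 at stage 1, as without it, and 0 lower. With the pairing at stage 1 crossed, a fit chosen after seeing the data since same-numbered arrays of the genotypes correlated there at -0.135, 1 member was called higher at stage 1, 2 at stage 2 and 4 in the average. Between the stages and for the interaction the count was 0 under every alternative run. The share of all probe sets called in the average ran from 2.46% to 8.59%. With 2 arrays a group at stage 1, and Nr4a2, Fos and Junb near the level for testing, differences of these sizes may go unseen.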
